A study of Mus musculus with 36 samples.

Results

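The genes described here are 28 enzymes, regulators and carriers of sterol synthesis, most of them targets of the transcription factor SREBP2 (sterol regulatory element-binding protein 2). They were chosen by name from what is known of the pathway, with earlier results of these data known, and they are 28 of the 19879 genes in the deposited tables. They comprise 6 early mevalonate enzymes (Acat2, Hmgcs1, Mvk, Pmvk, Mvd, Idi1), 4 enzymes of the prenyl and squalene steps (Fdps, Ggps1, Fdft1, Sqle) and 11 genes of the steps from lanosterol to cholesterol (Lss, Cyp51, Tm7sf2, Msmo1, Nsdhl, Hsd17b7, Ebp, Sc5d, Dhcr7, Erg28, Lbr). A further 4 genes control SREBP2 or encode it (Insig1, Insig2, Srebf2, Scap), and 3 handle acetate or sterol (Acss2, Stard4, Tmem97). RNA-seq was done on BV-2, a wild-type mouse microglial line that was immortalized, and gave 36 libraries in 12 groups of 3. Cells received DMSO alone, EtOH (ethanol) alone, 600 ng/mL of lipopolysaccharide (LPS, a component of the bacterial outer membrane that activates microglia), or the same LPS with 30 µM dimethyl fumarate (DMF), 30 µM monomethyl fumarate (MMF) or 6 µM cannabidiol (CBD), each for 4 h and 24 h. DMF and MMF were dissolved in DMSO and CBD in EtOH, whereas LPS was in water. Which vehicle the cultures with LPS alone received is not explicit in the labels, so a difference in vehicle between them and the drug groups was not tested. The serum in the medium was lowered just before treatment in the LPS experiments, and whether this also held for the cultures with vehicle alone is not explicit in the labels. All groups are cultures of 1 cell line, with no primary microglia.

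Cholesterol is made from acetyl-CoA through mevalonate, isoprenoids, squalene and lanosterol. When sterol in the endoplasmic reticulum is plentiful, the Insig proteins hold Scap and its cargo SREBP2 there. When sterol is low, Scap escorts SREBP2 to the Golgi, where proteases release the part that enters the nucleus and activates the genes of the pathway, Insig1 and Srebf2 itself among them. Microglia make cholesterol and also take it up from membranes and debris that they engulf.

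Promoters of 24 of the 28 genes were found in RefSeq sequences of the GRCm38.p6 mouse assembly, and those of Fdps, Fdft1, Sqle and Stard4 were not used here. SREBP2 is known to act beside the factors NF-Y and Sp1, so the windows from 250 bases before to 50 bases after the start were searched on both strands for 4 motifs. The NF-Y box CCAAT was in 21 of the 24 promoters (87.5%) and in 41.1% of those of all 27025 genes in the table. The GC box GGGCGG, the type of site that Sp1 binds, was in 22 of 24 (91.7%), with Pmvk and Ggps1 the exceptions, and in 38.2% of all genes. The E-box CACGTG was in 5 of 24 (20.8%; Hsd17b7, Sc5d, Dhcr7, Insig1 and Scap) and in 8.09% of all genes. A strict form of the sterol regulatory element, TCACNCCAC, was in 1 of 24 (4.17%; Hmgcs1) and in 1.44% of all genes. These are matches of letters and not measured sites. A gene was counted if any of its listed starts matched, and the shares of all genes include genes not expressed in these cells. The part of either in the differences was not tested. The promoters of 4 genes are shown because these stand at different ends of the results: Hmgcs1 holds the sterol regulatory element form, Hsd17b7 had the largest fall with DMF, Insig1 had the largest difference between CBD and DMF, and Ggps1 was not lower with either drug at 24 h and was higher with DMF at 4 h. Each is the 200 bases before the start, read 5′ to 3′ on the strand of the gene, with matches to any of the 4 motifs on either strand in capitals. Their positions in GRCm38.p6 are chr13:119690151-119690350 on the plus strand for Hmgcs1, chr1:169969206-169969405 on the minus strand for Hsd17b7, chr5:28071212-28071411 on the plus strand for Insig1 and chr13:14063489-14063688 on the minus strand for Ggps1.
Hmgcs1: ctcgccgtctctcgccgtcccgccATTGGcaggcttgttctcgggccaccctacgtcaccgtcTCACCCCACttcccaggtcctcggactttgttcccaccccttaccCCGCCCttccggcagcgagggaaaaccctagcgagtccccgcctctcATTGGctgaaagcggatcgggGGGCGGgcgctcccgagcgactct
Hsd17b7: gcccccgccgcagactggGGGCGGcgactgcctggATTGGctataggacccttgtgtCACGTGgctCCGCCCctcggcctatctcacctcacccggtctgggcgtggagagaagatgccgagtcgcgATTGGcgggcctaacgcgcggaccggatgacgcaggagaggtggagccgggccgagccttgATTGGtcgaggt
Insig1: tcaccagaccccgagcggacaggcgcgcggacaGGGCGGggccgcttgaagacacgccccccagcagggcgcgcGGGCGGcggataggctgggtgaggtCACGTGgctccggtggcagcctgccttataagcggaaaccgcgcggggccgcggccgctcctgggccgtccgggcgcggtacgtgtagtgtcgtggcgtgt
Ggps1: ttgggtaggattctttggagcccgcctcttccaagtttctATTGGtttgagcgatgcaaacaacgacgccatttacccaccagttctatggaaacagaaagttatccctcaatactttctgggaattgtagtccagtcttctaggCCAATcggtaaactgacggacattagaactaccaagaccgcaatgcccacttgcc
In these 200 bases, Hmgcs1 held 1 match to the sterol regulatory element form, 2 NF-Y boxes and 2 GC boxes. Hsd17b7 held 3 NF-Y boxes, 2 GC boxes and 1 E-box, Insig1 held 2 GC boxes and 1 E-box, and Ggps1 held 2 NF-Y boxes and none of the other motifs.

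The libraries held 14110424 to 26676607 counted reads, and no gene of the list had fewer than 122 reads in any library, so all 28 passed the filter on low values in all 35 comparisons. All 8 markers of microglia and macrophages were detected, with a summed level of 30537 to 54059 normalized counts, and the neuronal markers Snap25 and Syt1 and the astrocyte marker Aqp4 were at 0 in every library. Levels below are normalized counts on 1 scale for all 36 libraries. Differences are log2 differences of normalized count + 1 from limma, fitted within the 6 libraries compared, and a gene is called higher or lower at an adjusted p under 0.05 over all genes tested. The labels describe 3 independent experiments, and libraries with LPS are numbered 1 to 3 and those with vehicle alone 4 to 6. Whether vehicle and LPS libraries come from the same experiments is not explicit in the labels, so they could not be paired. Unless stated, the fits hold no term for the replicate number. Their p-values measure the spread between libraries within groups, which includes any shift shared by same-numbered libraries. Fewer transcripts per cell and fewer cells of one state cannot be told apart in bulk RNA. The median coefficient of variation of a gene within a group of 3 was 9.9%, and the largest was 46.3%.

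Per kilobase of exon, Tmem97, a receptor that binds sterol, stood highest in the mean over libraries (962 normalized counts per kilobase), followed by Fdps (905), Srebf2 (863) and Insig1 (689). Acss2, which makes acetyl-CoA from acetate, stood lowest (21.4), with Mvk (41.4) and Tm7sf2 (46.2) next. The length used was that of all annotated exons of a gene merged, 1875 bases for Tmem97 and 19789 for Acss2. This order therefore also depends on how many exons are annotated and is not a measure of abundance alone. Across the 12 groups the highest group mean exceeded the lowest by a ratio of 1.66 for Ggps1 to 6.13 for Acss2. The lowest mean fell in LPS with DMF at 24 h for 20 of the 28 genes and in LPS with CBD at 24 h for 3 (Idi1, Stard4 and Lbr). LPS alone at 24 h held the highest mean for 14 genes and LPS with MMF at 24 h for 6. The median over the 28 genes of the log2 level relative to each gene's average over groups was 0.41 ± 0.05 (SD, n = 3) in LPS at 24 h, 0.35 ± 0.10 with MMF, -0.45 ± 0.24 with CBD and -0.89 ± 0.09 with DMF. At 4 h the 6 groups lay between -0.17 and 0.10.

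**Figure D1:**
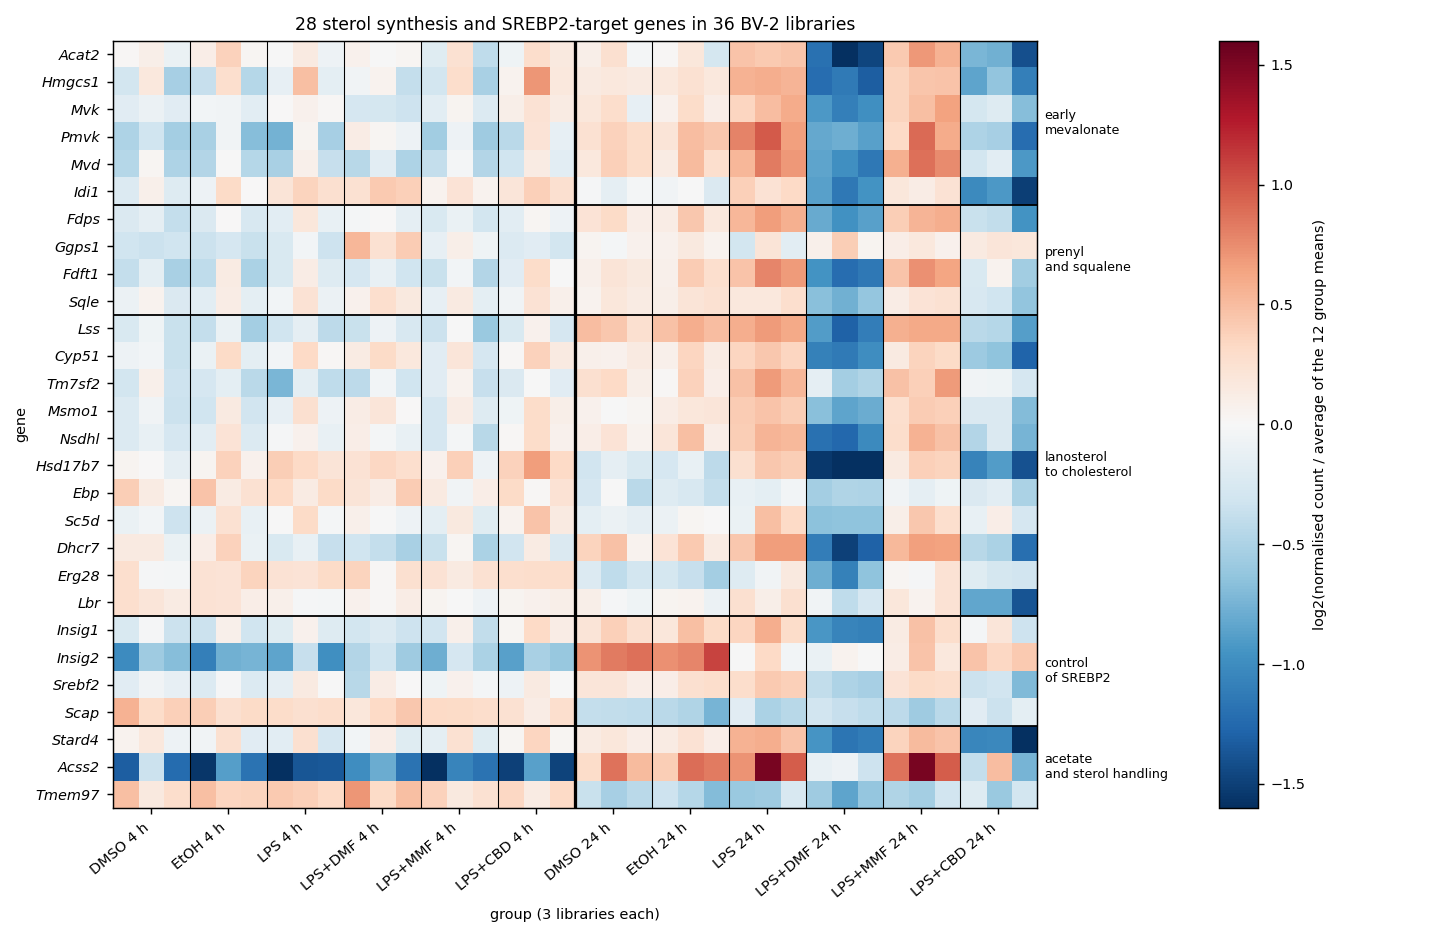
Level of each of the 28 genes (rows) in each of the 36 libraries (columns, by group), as log2 relative to the average of the gene over groups, with colours clipped at 1.6 on either side. LPS with DMF at 24 h and LPS with CBD at 24 h are the groups with low levels across most rows, whereas the medians of the 4 h groups lie between -0.17 and 0.10.

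The effect of LPS alone was set against each vehicle. At 24 h, 15 of 28 genes rose and 1 fell with LPS against DMSO, where 22.7% of all 11574 genes tested were called and 12.1% were called higher. Against EtOH, which shares the same LPS libraries, 14 rose and 1 fell, beside 20.5% of all 11775 genes called and 10.8% called higher. The median log2 difference over the 28 genes was 0.35 against DMSO and 0.30 against EtOH, whereas the median over all genes was 0.01 in both. The 3 LPS libraries lay above all 3 vehicle libraries for 17 genes and below them for 1 with either vehicle, while 39.9% (DMSO) and 37.6% (EtOH) of all genes did not overlap.

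All 6 early mevalonate enzymes rose with LPS at 24 h against both vehicles, by log2 differences of 0.34 to 0.53. Some of these calls were lost when 1 library was left out, those of Acat2 and Mvk against DMSO and of Mvk and Mvd against EtOH. One fit over all 36 libraries called Hmgcs1, Pmvk and Mvd against neither vehicle. Hmgcs1, which condenses acetoacetyl-CoA with acetyl-CoA, held 3218, 3281 and 3212 normalized counts in the LPS libraries, 2418, 2465 and 2433 with DMSO and 2468, 2608 and 2473 with EtOH. The LPS libraries were all above every vehicle library, and the log2 difference was 0.42 against DMSO (95% interval 0.28 to 0.56, adjusted p = 0.000749) and 0.37 against EtOH (0.22 to 0.52, adjusted p = 0.00256). Idi1, which isomerizes the first isoprene unit, was at 918, 823 and 879 with LPS, 694, 635 and 689 with DMSO and 675, 704 and 601 with EtOH, again without overlap. Pmvk, the second kinase of the pathway, showed log2 differences of 0.53 and 0.44 against DMSO and EtOH.

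Hsd17b7, a ketoreductase of the demethylation steps after lanosterol, had the largest rise of the list against either vehicle. Its 3 LPS libraries at 24 h held 1013, 1143 and 1114 normalized counts, against 690.1, 770.3 and 718 with DMSO and 704, 779.8 and 633 with EtOH. The groups did not overlap, with log2 differences of 0.60 (0.41 to 0.78, adjusted p = 0.000485) and 0.64 (0.43 to 0.85, adjusted p = 0.000691). Fdps and Fdft1, which make farnesyl diphosphate and squalene, rose by 0.39 and 0.51 against DMSO and by 0.36 and 0.40 against EtOH. Msmo1, the sterol methyl oxidase, rose from 4729, 4486 and 4597 with DMSO to 5983, 6191 and 5907 with LPS (log2 difference 0.40, adjusted p = 0.00114). Stard4, a carrier of cholesterol in the cytosol, rose from 1838, 1905 and 1804 with DMSO to 2483, 2525 and 2301 (0.41, adjusted p = 0.00178).

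Not every gene of the list followed. Sqle, the squalene epoxidase, was at 5268, 5263 and 5623 with LPS, 4862, 5299.6 and 5119 with DMSO and 4971, 5378 and 5529 with EtOH, and was called against neither. Insig1, itself a target of SREBP2, was at 4265, 5028 and 4126 with LPS and 3883, 4399.5 and 4028 with DMSO, with overlapping groups and intervals of -0.06 to 0.33 against DMSO and -0.13 to 0.31 against EtOH. Srebf2 showed 0.21 against DMSO (adjusted p = 0.0519) and 0.15 against EtOH (adjusted p = 0.206).

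Insig2 was the only gene of the list called lower with LPS at 24 h, against either vehicle. Unlike Insig1, this anchor of Scap is known as a poor target of SREBP2. Its levels were 678, 845 and 658 with LPS, 1122, 1208 and 1249 with DMSO and 1128, 1172 and 1439 with EtOH, so every LPS library was below every vehicle library. The log2 difference was -0.71 (-0.94 to -0.48, adjusted p = 0.000651) against DMSO and -0.77 (-1.03 to -0.50, adjusted p = 0.000933) against EtOH. Of the 16 calls against DMSO, 12 were kept in every fit that left out 1 library. Of the 15 against EtOH, 7 were kept, the count ranged from 7 without LPS replicate 3 to 16, and it was 8 without EtOH replicate 4 or 6. One fit over all 36 libraries called 10 and 7 genes, with Hmgcs1, Pmvk and Mvd in neither set. The summed levels of 4 neuronal and 4 endothelial markers moved with LPS at 24 h too, at 259 to 407 and 129 to 157 normalized counts against 185 to 216 and 81.9 to 94.8 with DMSO. Their part in the result was not tested. Snap25, Syt1, Rbfox3 and Cldn5 were at or near 0, so the neuronal sum was nearly all Syn1.

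At 4 h few genes of the list were called with LPS. The lowest and highest interval bounds over the 28 genes were -1.09 and 0.75 against DMSO and -0.71 and 0.76 against EtOH. The absence of a call at 4 h therefore does not show that a gene was unchanged. Against DMSO, Idi1 and Hsd17b7 rose, 2 of 28 genes beside 14.1% of all genes tested. Idi1 was at 815, 899.6 and 842 with LPS and 607, 746 and 611 with DMSO (0.38, adjusted p = 0.0404), and Hsd17b7 was at 1116, 1063 and 983 against 877, 852 and 768 (0.34, adjusted p = 0.0299). Neither group pair overlapped, but no call was kept in every fit that left out 1 library. Against EtOH none was called by limma or edgeR, 1 by DESeq2 and 2 at an unadjusted p under 0.05, beside 10.2% of all genes called. Dhcr7, which makes cholesterol from its last precursor, showed -0.31 and -0.37 against DMSO and EtOH, neither of them called. Scaling by total counts called 2 genes lower and none higher against either vehicle. The difference between the LPS effect at 24 h and at 4 h was called for Dhcr7 (0.59), Lbr (0.38) and Insig2 (-0.74) against DMSO and for these and Acat2 against EtOH, beside 9.46% and 9.0% of all genes. None of these calls was kept in every fit without 1 library, and edgeR did not call Insig2 against DMSO.

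**Figure D2:**
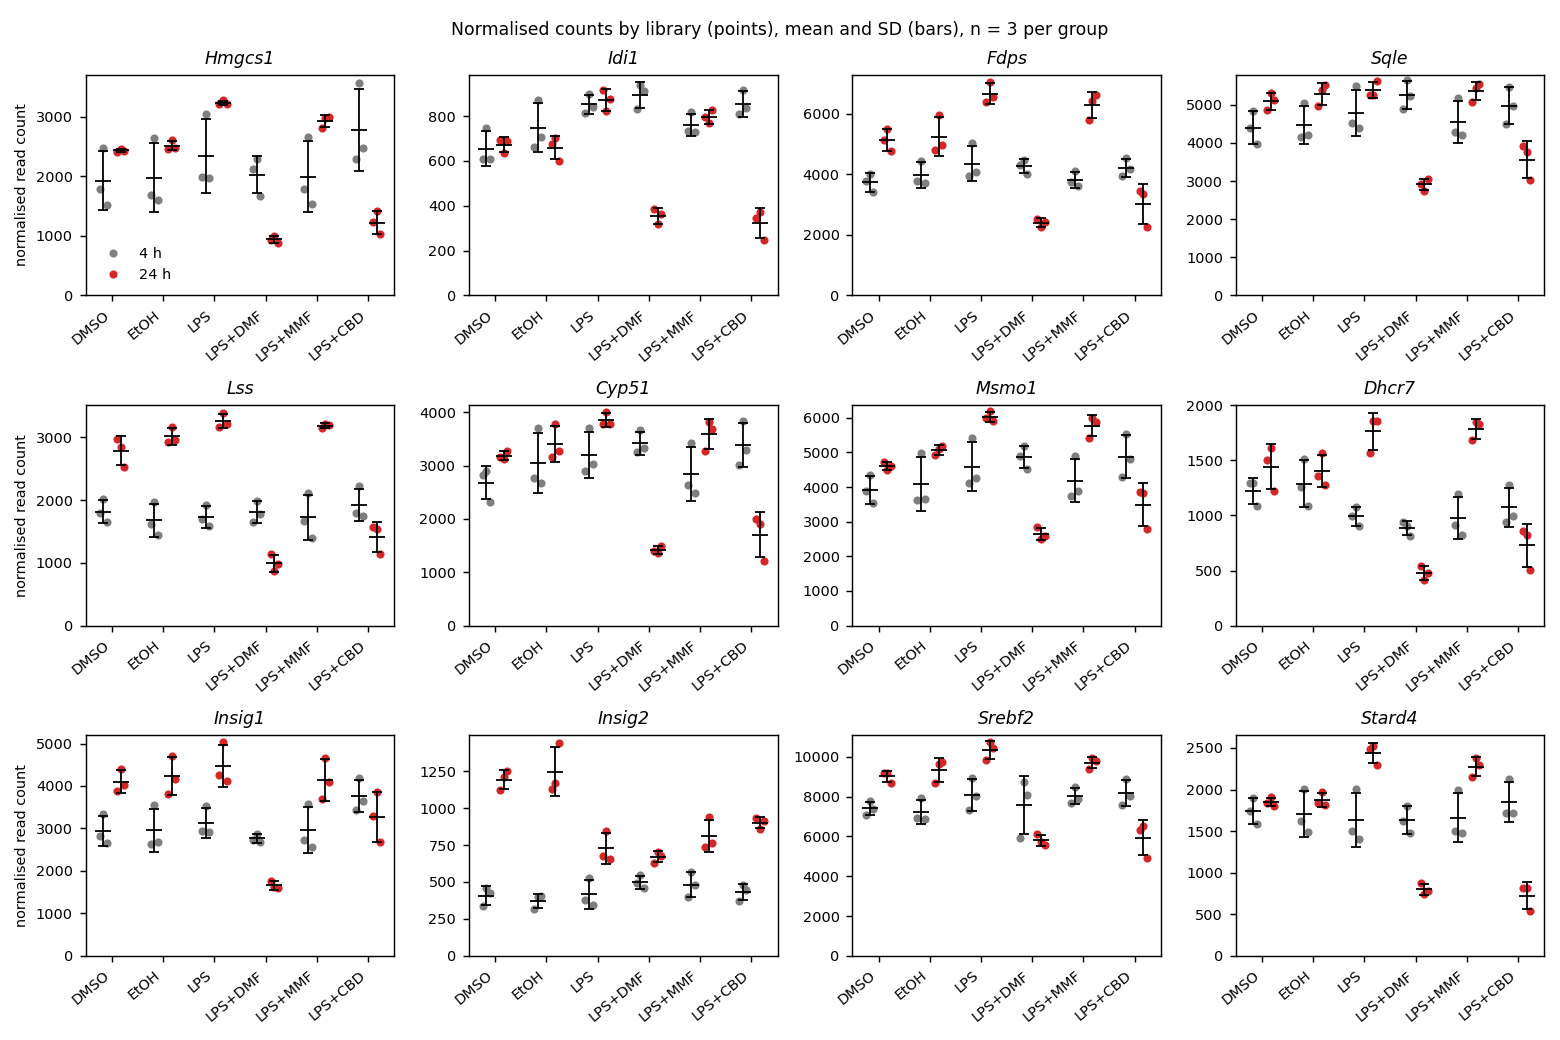
Normalized counts in each library (dots) with the mean and SD of the 3 libraries (bars) for 12 genes chosen by place in the pathway, by treatment at 4 h and 24 h. At 24 h, Hmgcs1 lies between 880.2 and 1006 with DMF and between 1024 and 1415 with CBD, with the LPS and MMF libraries between 2807 and 3281, and Insig2 shows a different pattern, lowest at 4 h.

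Nearly the whole pathway was lower with DMF at 24 h. Against LPS alone, 24 of 28 genes fell and none rose, while 25.1% of all 11670 genes tested were called and 13.2% were called lower. The median log2 difference over the 28 genes was -1.36, against -0.01 over all genes. The comparisons of DMF, MMF and CBD with LPS share the same 3 LPS libraries at each time. In all 24 genes the DMF libraries lay below the LPS libraries, where 42.4% of all genes did not overlap between the groups. Of the 24 calls, 23 were kept in each fit without 1 library, and Ebp was lost without replicate 3 of either group.

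All 6 early mevalonate enzymes fell with DMF, by log2 differences of -1.87 (Acat2, the cytosolic acetoacetyl-CoA thiolase, whose reads are uncertain because mouse has a close copy of this gene) to -1.30 (Idi1). Hmgcs1 was at 939, 1006 and 880.2 normalized counts with DMF, against 3218, 3281 and 3212 with LPS alone, so every DMF library was far below every LPS library. The log2 difference was -1.78 (-1.94 to -1.62, adjusted p = 1.74e-06), the smallest adjusted p of the list. Idi1 was at 387, 318 and 362 against 918, 823 and 879 (-1.30, adjusted p = 4.1e-05), with narrow groups far apart.

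In the prenyl and squalene steps, Fdps fell from 6371, 7050.1 and 6552 to 2538, 2251 and 2412 with DMF (-1.47, -1.63 to -1.31, adjusted p = 2.46e-06). Fdft1, the squalene synthase, fell by 1.75 on the log2 scale. Sqle fell less, to 2935, 2751 and 3043 from 5268, 5263 and 5623 (-0.89, adjusted p = 4.56e-05), still without overlap. Ggps1, which makes geranylgeranyl diphosphate for protein prenylation and not for sterol, was at 351, 436 and 343 with DMF and 272, 384 and 296 with LPS alone. Its groups overlapped, and the log2 difference of 0.25 (-0.06 to 0.56) was not called.

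All 11 genes of the steps from lanosterol to cholesterol fell with DMF, by 0.40 to 2.03 on the log2 scale. Hsd17b7 fell furthest of the whole list, to 293, 258 and 249 from 1013, 1143 and 1114 (-2.03, -2.24 to -1.82, adjusted p = 2.46e-06). Dhcr7 followed with 544, 416 and 477 against 1571, 1856 and 1861 (-1.88, adjusted p = 5.97e-06), and Lss, which closes the sterol rings, with 1136, 864 and 984 against 3170.2, 3393 and 3216 (-1.72, adjusted p = 5.54e-06). These 3 genes were clear of overlap by a wide gap. Cyp51, the lanosterol demethylase, was at 1403, 1359 and 1498 against 3774, 4004 and 3778 (-1.44), and Msmo1 at 2844, 2515 and 2599 against 5983, 6191 and 5907 (-1.19). The smallest falls were those of Ebp (-0.40, adjusted p = 0.0129), a sterol isomerase, and Lbr (-0.44, adjusted p = 0.00912), a lamin receptor that also has sterol reductase activity. The other 4 genes of these steps fell by 0.80 (Erg28) to 1.64 (Nsdhl).

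Among the regulators, Insig1 fell from 4265, 5028 and 4126 to 1772, 1617 and 1588 with DMF (-1.43, -1.62 to -1.24, adjusted p = 6.51e-06), and Srebf2 from 9834, 10746 and 10454 to 6114, 5707 and 5592 (-0.83, adjusted p = 6.38e-05). Scap, the escort, was at 1231, 1175 and 1147 against 1332, 1068 and 1117, a log2 difference of 0.02 (-0.19 to 0.23). Insig2 was at 631, 705 and 676 against 678, 845 and 658 (-0.11, -0.34 to 0.12). Both pairs of groups overlapped, and neither gene was called. Stard4 fell to 874, 748 and 775 from 2483, 2525 and 2301 (-1.61, adjusted p = 3.21e-06), and Acss2 fell by 1.25 on the log2 scale, whereas Tmem97 showed -0.21 (-0.45 to 0.03) and was not called.

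Levels with DMF were also below those without LPS. Against DMSO, its own vehicle, 23 of 28 genes were lower at 24 h and none higher, with 40.2% of all genes called and 20.3% called lower. Hmgcs1 was 1.35 lower on the log2 scale (adjusted p = 4.51e-07), Hsd17b7 1.42 lower and Dhcr7 1.57 lower. Insig2 was lower by 0.81 in this comparison. All 23 calls were kept in every fit without 1 library. Against DMSO at 24 h, the summed neuronal markers stood at 339 to 401 normalized counts with DMF and 185 to 216 with DMSO. This sum was nearly all Syn1, as Rbfox3 never exceeded 1.2 and Snap25 and Syt1 were at 0. The microglial markers stood at 45589 to 54059 with DMF and 31480 to 39041 with DMSO. The other 3 marker lists overlapped between these groups, and all 5 overlapped between DMF and LPS alone. The part of these shifts in the result was not tested.

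**Figure D3:**
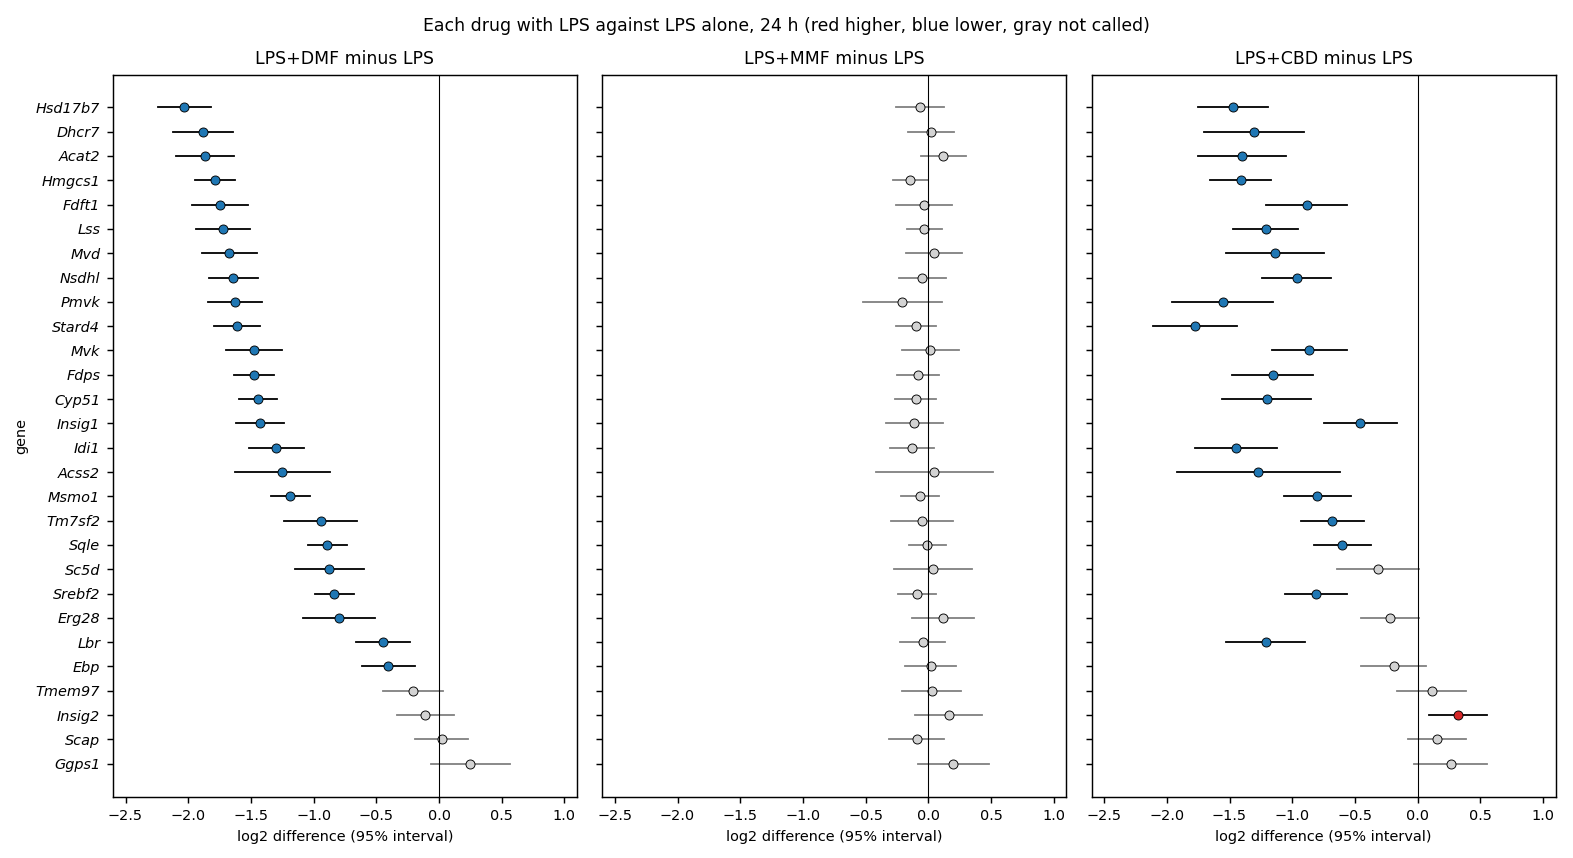
Log2 difference from LPS alone at 24 h with its 95% interval for each of the 28 genes, with DMF, MMF and CBD side by side. DMF and CBD points lie left of 0 for most genes, Hsd17b7 at -2.03 and -1.47 among them, and the MMF points lie around 0, from -0.21 to 0.20.

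MMF at the same 30 µM gave no call at 24 h. MMF is the hydrolysis product of DMF and carries 1 methyl ester fewer. Limma, edgeR and DESeq2 each called 0 of the 28 genes against LPS alone, 1 gene had an unadjusted p under 0.05, and limma called 0.0% of all 11584 genes. Hmgcs1 was at 2807, 2986 and 2998 with MMF (-0.14, -0.28 to -0.0036), Fdps at 5803, 6432 and 6602 (-0.09) and Insig1 at 3687, 4663 and 4093 (-0.11). Hmgcs1 was the single gene whose MMF libraries were all below those with LPS alone, while 9.0% of all genes did not overlap. The 95% intervals of all 28 genes lay between -0.52 and 0.52 on the log2 scale, whereas the median with DMF was -1.36. Against DMSO, LPS with MMF at 24 h gave 15 higher and 1 lower (Insig2, -0.54), beside 22.4% of all genes called, with Hsd17b7 at 0.54 and Hmgcs1 at 0.28. That count was 10 without MMF replicate 3 or DMSO replicate 6, and 7 in 1 fit over all 36 libraries.

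The fumarates were compared directly at matched dose and time. DMF was lower than MMF at 24 h for 24 of 28 genes and higher for none, where 21.5% of all genes tested were called and 11.4% called lower. Acat2 had the largest difference, at 634, 472 and 523 normalized counts with DMF and 1938, 2357 and 2131 with MMF (-1.99, -2.24 to -1.73, adjusted p = 1.39e-05), with no overlap. Hsd17b7 (-1.97), Dhcr7 (-1.90) and Hmgcs1 (-1.64) came near it. Ggps1, Scap, Insig2 and Tmem97 were not called, with intervals of -0.19 to 0.29, -0.05 to 0.27, -0.49 to -0.06 and -0.45 to -0.02. Of the 24 calls, 23 were kept in every fit without 1 library, with Lbr the exception.

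With CBD at 6 µM the pathway was also lower at 24 h. Against LPS alone 21 of 28 genes fell and 1 rose, in a comparison in which 48.7% of all 11671 genes tested were called and 24.8% were called lower. The median log2 difference over the 28 genes was -0.92, against 0.00 over all genes. The CBD libraries lay below all LPS libraries for 22 genes and above them for 1, while 58.7% of all genes did not overlap. CBD replicate 3 was the lowest of its group in 24 of the 28 genes. Its median level of the 28 genes was -0.73 on the log2 scale relative to the average over groups, against -0.32 and -0.31 in the other CBD libraries. Leaving it or any other library out kept the count at 21 to 23, and 21 of the 22 calls were kept in every such fit.

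Stard4 had the largest change with CBD: its 3 libraries held 814, 821 and 534 normalized counts, against 2483, 2525 and 2301 with LPS alone (-1.77, -2.11 to -1.44, adjusted p = 2.62e-05). All 6 early mevalonate enzymes fell, from -1.56 (Pmvk) to -0.86 (Mvk). Hmgcs1 was at 1228, 1415 and 1024 (-1.41, -1.66 to -1.17, adjusted p = 1.71e-05) and Idi1 at 347, 373 and 249 (-1.45, adjusted p = 6.04e-05). None of these CBD libraries reached the lowest LPS library, at 3212 for Hmgcs1 and 823 for Idi1.

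Fdps fell to 3449, 3363 and 2272 with CBD (-1.16, adjusted p = 0.000197) and Sqle to 3912, 3755 and 3025 (-0.60, adjusted p = 0.00108), while Ggps1 showed 0.26 (-0.03 to 0.55). Of the 11 genes after lanosterol, 8 fell, led by Hsd17b7 at 404, 457 and 324 (-1.47), Dhcr7 at 858, 824 and 507 (-1.30), Lbr (-1.21) and Lss at 1571, 1534 and 1142 (-1.21). Cyp51 was at 1992, 1902 and 1222 (-1.20) and Msmo1 at 3856, 3837 and 2782 (-0.80). All of these lay below every LPS library. Sc5d (-0.31), Erg28 (-0.22) and Ebp (-0.19) were not called.

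In the control group, Srebf2 fell to 6349, 6528 and 4919 with CBD (-0.81, adjusted p = 0.000327). Insig1 fell only to 3282, 3848 and 2673 from 4265, 5028 and 4126 (-0.46, -0.75 to -0.17, adjusted p = 0.0159), the smallest of the called falls. Insig2 rose, to 934, 859 and 912 from 678, 845 and 658 (0.32, 0.09 to 0.56, adjusted p = 0.0285). The rise of Insig2 was the call lost without LPS or CBD replicate 1 or 3, and in 1 fit over all 36 libraries. Against EtOH, the vehicle of CBD, 21 genes were lower and 1 higher (Scap, 0.32), beside 50.5% of all genes called, and Insig2 was lower by 0.45 on the log2 scale.

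Other measures moved with CBD at 24 h. Mitochondrial genes took 1.25% to 1.396% of reads, against 1.44% to 2.315% with LPS alone. Oligodendrocyte markers summed to 75.9 to 80.8 normalized counts against 42.8 to 62.0, with Mog and Mobp never above 1.13 and 2.11. Endothelial markers summed to 67.3 to 88.5 against 129 to 157. The neuronal sum, nearly all Syn1, was 162 to 240 against 259 to 407. Microglial markers overlapped, at 39617 to 50642 against 37688 to 50421. The part of these shifts in the result was not tested.

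CBD and DMF, given at different doses, were both followed by low levels of the pathway at 24 h but differed in how far. CBD was higher than DMF for 14 of 28 genes and lower for 1, beside 38.5% of all 11740 genes called, 19.3% higher. Insig1 differed most, at 3282, 3848 and 2673 with CBD and 1772, 1617 and 1588 with DMF (0.96, 0.69 to 1.23, adjusted p = 0.000384). Fdft1 (0.86), Nsdhl (0.67), Mvk (0.60), Erg28 (0.57), Sc5d (0.55) and Insig2 (0.42) were also higher with CBD. Lbr was the exception, at 1423, 1417 and 970.5 with CBD and 2433, 1912 and 2104 with DMF (-0.78, -1.11 to -0.44, adjusted p = 0.00337). These 8 calls were kept in every fit without 1 library. The other 7, Hsd17b7, Hmgcs1, Lss, Dhcr7, Mvd, Msmo1 and Sqle, were each lost in some, and the count was 8 when DMF replicate 3 was left out, and 9 or 19 when CBD replicate 1 or 3 was. Stard4 (-0.17, -0.52 to 0.18), Idi1 (-0.16, -0.51 to 0.19), Srebf2 (0.02, -0.22 to 0.26) and Pmvk (0.06, -0.33 to 0.46) were not called.

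Against MMF at 24 h, CBD was lower for 22 of 28 genes and higher for 1 (Scap, 0.24), beside 48.3% of all genes called and 24.7% called lower. Stard4 again stood furthest apart, at 814, 821 and 534 with CBD and 2147, 2382 and 2299 with MMF (-1.68, adjusted p = 4.6e-05). Insig1 was not called in this comparison (-0.35, adjusted p = 0.0547).

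**Figure D4:**
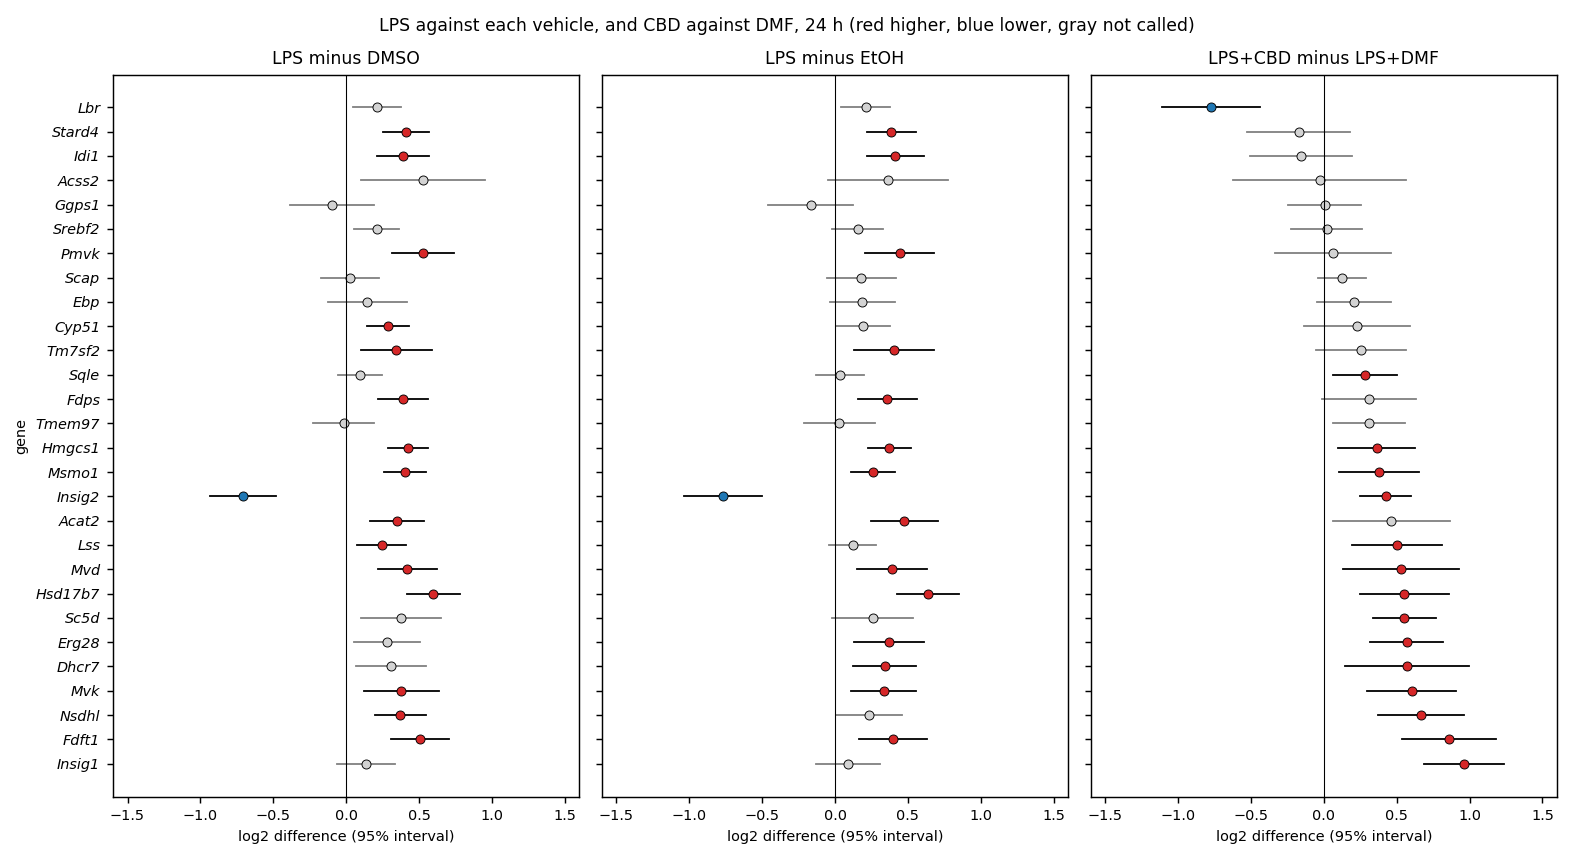
Log2 differences at 24 h with 95% intervals for each of the 28 genes, for LPS against DMSO, LPS against EtOH and LPS with CBD against LPS with DMF. Insig2 is the point furthest left for LPS (-0.71 and -0.77), and Insig1 (0.96) and Lbr (-0.78) mark the ends of the CBD against DMF differences.

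At 4 h few of these genes were called with any drug. DMF against LPS gave 1 call of 28, Ggps1, beside 11.1% of all 11371 genes. Ggps1 was at 481, 395 and 442 with DMF, 280.4, 322 and 265 with LPS, 304, 356 and 318 with MMF and 285, 293 and 271 with CBD, so all DMF libraries were above all others at that time. The log2 difference from LPS was 0.60 (0.32 to 0.87, adjusted p = 0.0145), and it was lost without DMF replicate 3, LPS replicate 1 or LPS replicate 3. Mvk, the mevalonate kinase, showed -0.33 (-0.54 to -0.11, adjusted p = 0.0597) and Acss2 0.48 (0.12 to 0.85, adjusted p = 0.0985).

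MMF and CBD gave no call against LPS at 4 h with limma, edgeR or DESeq2. The number at an unadjusted p under 0.05 was 0 for MMF and 1 for CBD, beside 0.122% and 0.00875% of all genes called. Hmgcs1 was at 1996, 3054 and 1965 with LPS alone. Its levels with CBD were 2290.2, 3576 and 2478, with DMF 2118, 2287 and 1678, and with MMF 1794, 2663 and 1529. The groups overlapped throughout, with replicate 2 highest in each. Replicate 2 was the highest of its group at 4 h in 21, 16, 23 and 24 of the 28 genes (LPS alone, then DMF, MMF and CBD in that order), and replicate 5 in 20 and 21 with DMSO and EtOH.

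Between drugs at 4 h, CBD was higher than DMF for Insig1 and Mvk and lower for Ggps1, 3 calls beside 15.5% of all genes. Insig1 was at 3446, 4181 and 3654 with CBD and 2738, 2880.1 and 2679 with DMF (0.45, adjusted p = 0.0102), and Mvk at 493, 540.0 and 506 against 382, 379 and 368 (0.46, adjusted p = 0.0104). The groups did not overlap for either. Ggps1 had the largest difference (-0.61, -0.86 to -0.37, adjusted p = 0.00538) and was kept in every fit without 1 library, whereas the count was 1 without DMF replicate 3. With the replicate number as a block 5 genes were higher and 1 lower, beside 23.0% of all genes.

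CBD against MMF at 4 h gave no call with limma, edgeR or DESeq2 without the block, 7 genes at an unadjusted p under 0.05 and 0.166% of all genes called. With the block, 15 of 28 genes were higher with CBD and none lower, beside 7.78% of all genes. DMF against MMF at 4 h gave no call with limma or edgeR, 1 with DESeq2, 3 genes at an unadjusted p under 0.05 and 8.34% of all genes called, with Ggps1 at 0.42 (0.15 to 0.69, adjusted p = 0.0605). Against DMSO, LPS with DMF at 4 h gave 6 higher and 1 lower (Dhcr7, -0.47), led by Ggps1 (0.72, adjusted p = 0.00173), beside 23.5% of all genes. Scaling by total counts gave 3 higher and 2 lower, and the count was 4 without DMF replicate 2, 3 without DMF replicate 3 or DMSO replicate 4, and 2 without DMSO replicate 6. When each was set against its own vehicle at 4 h, MMF (DMSO) and CBD (EtOH) gave no call with limma or edgeR and 3 and 4 genes at an unadjusted p under 0.05, beside 8.22% and 13.6% of all genes. DESeq2 gave 0 and 1, and CBD against EtOH gave 7 without EtOH replicate 5. DMSO against EtOH gave no call at either time with limma, edgeR or DESeq2. At an unadjusted p under 0.05 there were 0 genes at 4 h and 1 at 24 h, beside 0.0% and 0.00854% of all genes called. With the block, 7.65% of all genes were called at 4 h and 0.171% at 24 h. The lowest and highest interval bounds over the 28 genes were -0.51 and 0.85 at 4 h and -0.503 and 0.375 at 24 h. The absence of calls therefore does not show that the vehicles were alike.

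The drug effects at the 2 times were compared by an interaction term over 12 libraries. The DMF effect was more negative at 24 h than at 4 h for 23 of 28 genes and more positive for none, beside 16.3% of all 11958 genes called and 7.89% in that direction. Pmvk (-2.06, -2.53 to -1.59, adjusted p = 3.81e-05), Hsd17b7 (-2.0) and Acat2 (-1.88) differed most, and Ebp, Insig2, Ggps1, Tmem97 and Scap were not called. The CBD effect was more negative for 21 genes and more positive for none, beside 32.0% of all genes and 16.7% in that direction, led by Stard4 (-1.97, -2.46 to -1.48, adjusted p = 4.4e-05), Pmvk (-1.86) and Hmgcs1 (-1.67). All calls of these terms were kept in every fit without 1 library. The MMF effect gave 0 calls with limma, edgeR and DESeq2, beside 0.0% of all genes, 0 at an unadjusted p under 0.05 and intervals from -0.81 to 0.64.

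Within a treatment, many of these genes differed between the times, as did 48.9% to 63.2% of all genes. From 4 h to 24 h, 18 of 28 genes rose and 4 fell with LPS alone (48.9% of all genes called), 19 rose and 2 fell with MMF (49.5%), 14 rose and 6 fell with DMSO (51.6%) and 13 rose and 6 fell with EtOH (58.6%). With DMF 2 rose and 24 fell (58.8%), and with CBD 3 rose and 21 fell (63.2%). Of all genes, 24.7% were called higher and 24.3% lower with LPS alone, and 25.1% and 24.3% with MMF. These shares were 25.7% and 25.8% with DMSO and 29.1% and 29.5% with EtOH. They were 29.7% and 29.1% with DMF and 31.6% and 31.6% with CBD. Scap and Tmem97 were lower at 24 h in every treatment, Scap by 0.45 to 0.88 and Tmem97 by 0.64 to 1.18 on the log2 scale. Insig2 and Acss2 were higher at 24 h in every treatment. Insig2 rose from 337, 460.1 and 422 to 1122, 1208 and 1249 with DMSO (1.54, adjusted p = 7.65e-06) and by 1.71 with EtOH, 0.81 with LPS, 0.76 with MMF, 1.06 with CBD and 0.42 with DMF. Acss2 rose from 129, 165 and 165 to 696, 1214 and 827 with LPS (2.53, adjusted p = 3.37e-05), and by 0.80 with DMF and 1.06 with CBD.

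Hsd17b7 had the largest fall over time with DMF (-1.96, adjusted p = 2.26e-06) and with CBD (-1.58, adjusted p = 7.45e-06), from 1002, 1073 and 1026 to 293, 258 and 249 with DMF and from 1101, 1349 and 1057 to 404, 457 and 324 with CBD. It was also lower at 24 h with EtOH (-0.45) and with DMSO (-0.22, a call that DESeq2 did not make), and with LPS alone it was at 0.04 and not called. Idi1 fell by 1.34 with DMF and 1.43 with CBD and showed 0.03 with LPS alone. Hours of exposure and hours of culture cannot be told apart in these comparisons.

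Genes beside the pathway were counted in 4 lists of related function. Of all genes tested against LPS at 24 h, 25.1% were called with DMF (11.9% higher, 13.2% lower) and 48.7% with CBD (23.9% higher, 24.8% lower). Of 9 genes that process SREBP or degrade its partners, 2 were higher with DMF than with LPS at 24 h (Syvn1, an ubiquitin ligase, 0.69, and Erlin1, which binds sterol regulators in the endoplasmic reticulum, 0.40) and 5 were higher with CBD (Erlin1, 0.97, and Spring1, which aids the protease of SREBP, 0.88, among them). None was lower with either. The shares called, 2 of 9 with DMF and 5 of 9 with CBD, were close to the 25.1% and 48.7% of all genes. Erlin1 was at 1485 ± 30 (SD, n = 3) normalized counts with LPS, 1967 ± 78 with DMF and 2927 ± 396 with CBD. Of 10 genes on the non-sterol branches, which use prenyl groups for dolichol, ubiquinone and proteins, 1 was lower with DMF (Coq2, -0.30), and 1 was higher and 3 were lower with CBD, Pdss1 (-0.77) and Rabggtb (-0.35) among them. Both counts were below the shares of all genes called, 25.1% with DMF and 48.7% with CBD.

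Among genes of fatty acid synthesis and desaturation, 6 of 10 fell with DMF at 24 h against LPS and none rose, beside 13.2% of all genes called lower, with Acly, which makes cytosolic acetyl-CoA from citrate, at -0.86 and the desaturase Scd1 at -0.60. With CBD 9 of 10 fell and none rose, beside 24.8% of all genes called lower, with Fasn, the fatty acid synthase, at -1.22 and Acly at -1.14. Fasn was at 6322 ± 689 normalized counts with CBD and 17127 ± 1494 with DMF, and the log2 difference of CBD from DMF was -1.44 (adjusted p = 1.95e-05). Srebf1, the sister gene of Srebf2 that drives fatty acid synthesis, was also lower with CBD than with DMF (-1.24, adjusted p = 0.000103).

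Of 9 tested genes of cholesterol efflux and storage, many of them targets of the oxysterol receptor LXR, 3 rose and 1 fell with DMF, beside 25.1% of all genes called. With CBD 4 rose and 4 fell, beside 48.7% of all genes. Abca1, which exports cholesterol to lipoprotein, was at 1706 ± 289 normalized counts at 24 h with LPS alone and at 1722 ± 312 with MMF, whereas it was at 4286 ± 275 with DMF and 417 ± 162 with CBD. Its log2 difference from LPS was 1.34 with DMF (adjusted p = 4.85e-05) and -2.08 with CBD (adjusted p = 9.76e-05), and CBD against DMF was -3.43. Scarb1, a lipoprotein receptor, fell with both, by 0.92 and 1.23 on the log2 scale. MMF gave no call in any of the 4 lists at 24 h. With LPS alone at 24 h, Abca1 was 0.62 lower than with DMSO and 0.57 lower than with EtOH on the log2 scale.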

How the data were processed

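RNA-seq of poly(A) RNA was deposited as 30 tables, each holding 2 groups of 3 libraries. Per the labels and the study's methods, the authors used cutadapt 4.4 and Trimmomatic 0.39 for trimming, mapped to GRCm39 by HISAT2 2.2.1, counted reads per gene with HTSeq 2.0.3 on Ensembl annotation and divided the counts by DESeq2 1.40.2 size factors, and the deposited values are this normalized signal, so it is comparable only within a table. The strand setting is not given in the sources used here. Columns with the authors' fold changes and p-values were not used. Whole reads were recovered directly in 155 of 180 library columns (100.0% of values whole within 0.01 read) and for all 36 libraries.

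Comparisons were tested with limma 3.58.1 (R 4.3.3, lmFit and eBayes with trend) on log2(normalized count + 1), for genes at 10 or more in at least 3 libraries, with Benjamini-Hochberg adjustment over all genes tested. Interactions and levels used recovered reads on 1 joint median-of-ratios scale. Alternatives were edgeR 4.0.16 and DESeq2 1.42.0 on recovered reads, a pseudocount of 5, no filter, total-count scaling, 1 fit of 36 libraries, a replicate block and leaving out each library. Each drug against its vehicle was a comparison added after seeing the data. The fits were tested on simulated data. The replicate block was run wherever both groups held the same replicate numbers, and the reported calls are from fits without it unless stated. Whether replicate numbers pair libraries was checked by requiring deviations correlated above 0.1 in all 3 same-numbered pairs. This failed at 4 h for MMF against LPS and DMF against MMF. It also failed for 24 h against 4 h with DMSO, EtOH, DMF and CBD. The block was run in these comparisons too. Values in every library are given for 12 genes set by place in the pathway and for the largest called change in each comparison of LPS with vehicle or of drugs. From the lists of related genes at most 2 are named per comparison. The 28 genes and the lists were chosen with earlier results of these data known.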

Additional observations from a re-analysis of the deposited data

Results flagged for a closer look

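For 51 effects the change between 4 h and 24 h passed the test of the difference itself, an interaction term in limma with adjusted p under 0.05. The values are log2 differences of the effect at 24 h minus that at 4 h, and the vehicle and LPS libraries are shared between terms.

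For DMF against LPS, 23 genes were more negative at 24 h, beside 7.89% of all genes called in that direction. Among the early enzymes these were Acat2 (-1.88), Hmgcs1 (-1.6), Mvk (-1.15), Pmvk (-2.06), Mvd (-1.58) and Idi1 (-1.37). In the prenyl and squalene steps they were Fdps (-1.45), Fdft1 (-1.63) and Sqle (-1.03). After lanosterol they were Lss (-1.78), Cyp51 (-1.54), Tm7sf2 (-1.11), Msmo1 (-1.28), Nsdhl (-1.65), Hsd17b7 (-2.0), Sc5d (-0.78), Dhcr7 (-1.72), Erg28 (-0.75) and Lbr (-0.51). The remaining genes were Insig1 (-1.26), Srebf2 (-0.72), Stard4 (-1.62) and Acss2 (-1.73).

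For CBD against LPS, 21 genes were more negative at 24 h, beside 16.7% of all genes called in that direction. Early enzymes were Acat2 (-1.51), Hmgcs1 (-1.67), Mvk (-0.99), Pmvk (-1.86), Mvd (-1.29) and Idi1 (-1.46), followed by Fdps (-1.12), Fdft1 (-1.03) and Sqle (-0.66). Later genes were Lss (-1.36), Cyp51 (-1.29), Tm7sf2 (-0.97), Msmo1 (-0.90), Nsdhl (-1.12), Hsd17b7 (-1.62), Dhcr7 (-1.41) and Lbr (-1.27), with Insig1 (-0.73), Srebf2 (-0.83), Stard4 (-1.97) and Acss2 (-1.47) outside the synthesis steps.

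The LPS effect was called different between the times for Dhcr7 (0.59), Lbr (0.38) and Insig2 (-0.74) against DMSO. Against EtOH it was called for Acat2 (0.61), Dhcr7 (0.70), Lbr (0.38) and Insig2 (-0.91). These stood beside 9.46% and 9.0% of all genes called, and none of the calls was kept in every fit without 1 library. No value of MMF passed the test.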

How the results depend on the processing

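No gene that limma called reversed its sign under any alternative run, and genes not called were not checked for this. Of 235 values under settings other than leaving out a library, 221 stayed the same. For counts of called genes this meant within 1.5 times the reported count. The median levels of the 12 groups under total-count scaling were among the 235, and for these it meant a change below the SD. The exceptions were as follows, and the cause was not tested. DESeq2 gave 1 gene for LPS against EtOH, DMF against MMF and CBD against EtOH, all at 4 h. Total-count scaling at 4 h gave 2 for LPS against EtOH, 2 for DMF against LPS and 1 for MMF against DMSO. One fit of 36 libraries gave 2 for DMF against LPS and 1 for DMF against MMF at 4 h, and at 24 h 10 for LPS against DMSO, 7 for LPS against EtOH and 7 for MMF against DMSO. The replicate block gave 2 for DMF against MMF, 6 for CBD against DMF and 15 for CBD against MMF at 4 h. It moved no other count by more than 1.5 times and ended no call.

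Leaving out 1 library at a time gave, at 4 h, 0 to 2 genes for LPS against DMSO, 0 to 2 for DMF against LPS, 0 to 1 for DMF against MMF, 1 to 3 for CBD against DMF, 2 to 6 for DMF against DMSO, 0 to 1 for MMF against DMSO and 0 to 7 for CBD against EtOH. At 24 h it gave 7 to 16 for LPS against EtOH, 8 to 19 for CBD against DMF, 10 to 16 for MMF against DMSO, 23 to 25 for DMF against LPS and 21 to 23 for CBD against LPS. The change of the LPS effect between times ranged from 0 to 5 (DMSO) and 0 to 6 (EtOH), and that of the DMF and CBD effects from 23 to 24 and 21 to 24. The lowest value of the list in any library was 122 reads.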
